A study of Mus musculus with 2 samples.

Results

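Malat1 and Neat1 are neighbouring genes for long non-coding RNAs of the nucleus, and their locus was taken as the stretch of mouse chromosome 19 from 5.79 to 5.855 Mb (mm9). It covers 65 kb, or 130 bins of 500 bp, and holds 2 of the 37273 annotated genes as its subject. The locus took 223 of 4214959 LUZP1 reads and 120 of 2734938 mock reads. It also holds 2 of the 47 peaks in the authors' LUZP1 list. The reads come from chromatin immunoprecipitation followed by sequencing (ChIP-seq) in E14 cells, which are mouse embryonic stem (ES) cells of strain 129P2/OlaHsd, kept without feeders and used at passages 25 to 30. One group was precipitated with rabbit serum against LUZP1, a leucine zipper protein (n = 1 library). The other was a mock precipitation from the same line (n = 1 library), which the sample labels give as without antibody and the design text as with GST. The series' title places the work in the study of ATAC and Mediator, coactivators of transcription, at non-coding RNA genes. With 1 library a group no test between conditions was possible. Each ratio below is scaled to total reads, or to total fragments where read pairs are counted once. It carries an exact conditional binomial (Clopper-Pearson) 95% interval, which covers counting error only. Expression was not measured, so the ES cell identity could not be checked on markers.

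Malat1 RNA is among the most abundant nuclear RNAs of mammalian cells and gathers in nuclear speckles, where splicing factors are stored. Its 3′ end is not polyadenylated. RNase P cuts the transcript after a genome-encoded run of A, which releases a small tRNA-like RNA called mascRNA. Neat1 is the scaffold of paraspeckles, nuclear bodies rich in RNA-binding proteins, and it is made as a short polyadenylated form and as a long form that reads through the short form's end. Both genes are transcribed from the minus strand, so that Neat1 lies upstream of Malat1.

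Malat1 (ENSMUSG00000092341.1) spans 5795690 to 5802671, and its longest transcript is a single exon of 6982 bp. Neat1 (ENSMUSG00000092274.1) spans 5824708 to 5845478, which is the long form as a single exon of 20771 bp, and the short form runs from 5842307 to 5845476. Gm20417, a non-coding transcript on the opposite strand, lies inside Malat1 (5797562 to 5798549). ChIP reads carry no strand of transcription, so its reads and those of Malat1 cannot be told apart. Gm9783 (5848508 to 5851372) and the 3′ part of Frmd8 (5849702 to 5875274), a protein-coding gene, lie beyond the Neat1 start.

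The stretches that carry the results are shown in the sense of the 2 genes, the minus strand of mm9. For the listed Malat1 peaks and for a Neat1 stretch with LUZP1 reads and no mock read, 300 bases are given, and capitals mark the bases under the most LUZP1 fragments. These stretches are chr19:5801171-5801470 in the peak nearer to the Malat1 start (5′ peak), chr19:5800390-5800689 in the other (3′ peak) and chr19:5840827-5841126 in Neat1.
Malat1 5′ peak: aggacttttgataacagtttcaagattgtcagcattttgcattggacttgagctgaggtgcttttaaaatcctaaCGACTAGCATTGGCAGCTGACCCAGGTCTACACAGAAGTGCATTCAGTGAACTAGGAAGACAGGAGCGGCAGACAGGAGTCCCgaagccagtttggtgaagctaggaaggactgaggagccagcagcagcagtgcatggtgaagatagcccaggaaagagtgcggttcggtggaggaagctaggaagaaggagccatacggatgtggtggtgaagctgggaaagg
Malat1 3′ peak: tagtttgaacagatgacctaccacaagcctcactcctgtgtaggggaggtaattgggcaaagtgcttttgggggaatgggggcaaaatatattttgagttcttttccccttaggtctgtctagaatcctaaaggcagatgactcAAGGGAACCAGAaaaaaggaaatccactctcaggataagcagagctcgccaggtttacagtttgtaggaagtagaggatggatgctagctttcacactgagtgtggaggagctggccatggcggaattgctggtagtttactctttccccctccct
Neat1 stretch: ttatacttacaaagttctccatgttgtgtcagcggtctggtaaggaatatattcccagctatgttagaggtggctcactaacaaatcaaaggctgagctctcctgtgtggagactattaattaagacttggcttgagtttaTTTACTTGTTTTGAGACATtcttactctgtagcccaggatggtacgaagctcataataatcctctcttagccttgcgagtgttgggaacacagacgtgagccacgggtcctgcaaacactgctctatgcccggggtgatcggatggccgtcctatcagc
The capitals lay under 3 fragments in the 5′ peak, 4 in the 3′ peak and 4 in the Neat1 stretch, counted with read pairs joined. The 5′ peak had 16 CpG dinucleotides in 510 bp, or 31.4 per kb, against 12.2 per kb in the 3′ peak and 13.2 per kb over Malat1 as a whole. Its GC content was 53.3%, against 46.8% in the 3′ peak and 42.5% in the gene.

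The ends of the RNAs are shown because the results below follow the locus from start to end. At the Malat1 3′ end, the 100 bases of chr19:5795900-5795999 begin with the last run of at least 10 A in the gene (12 bases), and the capitals mark the only match of Malat1's sense strand to the B box of tRNA genes. The match began 42 bases after the A run. On either strand, 0.338% of 581419 windows of 100 bases on chromosome 19 held this motif. At the end of the Neat1 short form, in chr19:5842277-5842376, capitals mark AATAAA, the polyadenylation signal, 14 bases before the annotated end. It occurred on either strand in 14.4% of such windows. The RefSeq promoter of Malat1 (GRCm38.p6, chr19:5802623-5802922, minus strand) has its first 50 transcribed bases in capitals.
Malat1 tRNA-like end: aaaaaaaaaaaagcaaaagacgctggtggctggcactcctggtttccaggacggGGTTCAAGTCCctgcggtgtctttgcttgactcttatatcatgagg
Neat1 short form end: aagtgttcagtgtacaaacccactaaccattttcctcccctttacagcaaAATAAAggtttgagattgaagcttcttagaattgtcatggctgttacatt
Malat1 promoter: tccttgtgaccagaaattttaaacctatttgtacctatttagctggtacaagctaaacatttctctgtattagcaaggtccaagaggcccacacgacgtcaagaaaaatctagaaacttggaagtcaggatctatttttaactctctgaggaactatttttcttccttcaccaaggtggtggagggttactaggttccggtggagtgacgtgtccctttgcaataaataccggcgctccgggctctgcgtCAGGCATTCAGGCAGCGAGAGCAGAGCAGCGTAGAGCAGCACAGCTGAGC

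Reads were 36 bp long, and no position held more than 1 read of the same strand in either library. LUZP1 had 1.59 and the mock 1.03 reads per kb of genome. Reads on opposite strands lay most often 85 bp apart in LUZP1 and 162 bp apart in the mock, at 14.4 and 25.6 times the frequency of pairs at 301 to 600 bp. The ratios of the whole locus, of the starts, bodies and ends, of the stretch between the genes and of the peaks together are therefore also given with such pairs counted once. Those ratios are scaled by 0.548, from fragment totals, in place of 0.649, so part of their change comes from the scale. Where reads are opposite ends of the same fragment, intervals over reads are too narrow.

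Over the whole locus LUZP1 and mock reads were near balance. The 223 LUZP1 reads, 145 after scaling, stood against 120 mock reads, a ratio of 1.21 (0.962 to 1.52), or 1.17 (0.904 to 1.53) with pairs counted once. Of 38022 windows of 65 kb with at least 20 mock reads in the genome, 18.8% had a ratio at least as high, and their median was 0.988. Both libraries were denser here than on average, with 108 LUZP1 and 71 mock reads in the median window. Over the 500 bp bins of the genome the ratio rose with GC content, from 0.934 at 38 to 40% to 1.17 at 48 to 50%. The locus has a GC content of 48.5%. Divided by the ratio of bins of the same GC, its ratio was 1.06 (0.845 to 1.33).

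**Figure D1:**
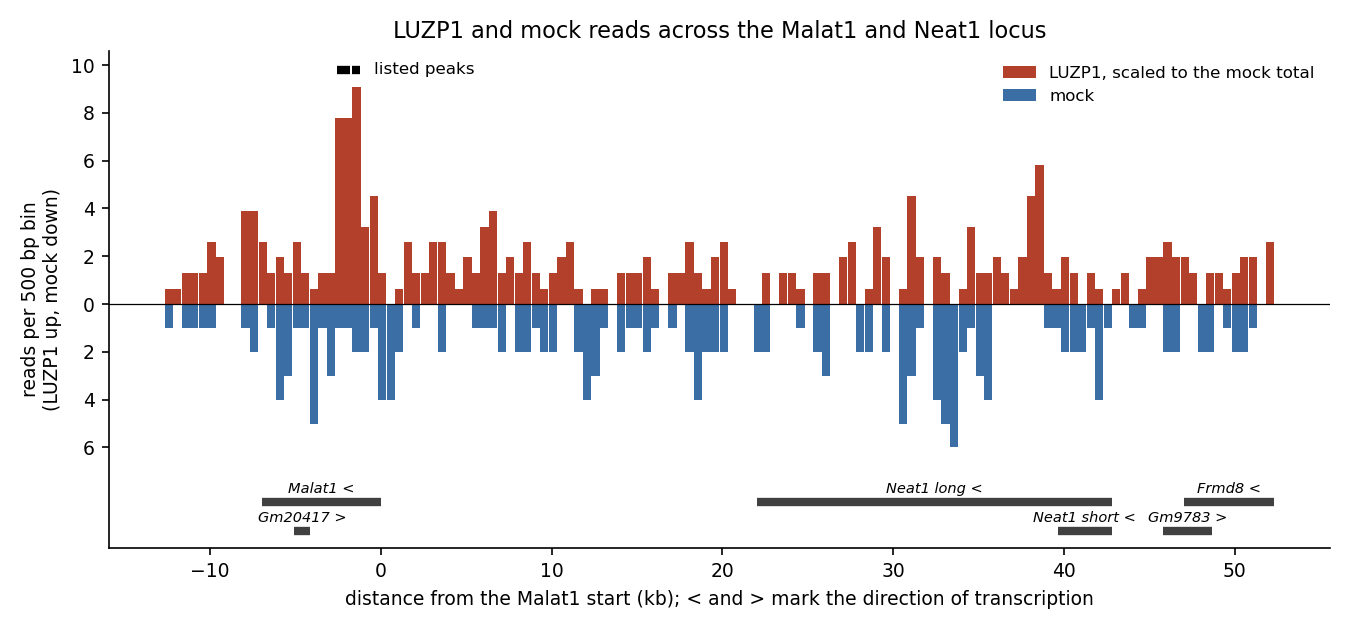
Reads extended to 200 bp that overlap each 500 bp bin, LUZP1 upward after scaling to the mock total and mock downward, by distance from the Malat1 start in kb. Black bars at the top are the listed peaks, and grey bars at the bottom are genes. The 3 highest LUZP1 bars, at 7.79, 7.79 and 9.08 scaled reads, lie under the listed peaks inside Malat1.

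Single bins higher in either library were found in Malat1, in Neat1 and between them. A bin was counted as higher in a library when it held at least 5 reads of both libraries together and its scaled ratio, with 1 added to both counts, reached 2. By this rule 11 of the 41 bins of the locus with enough reads were higher in LUZP1 (26.8%), against 19.5% of such bins in the genome, and 8 were higher in the mock (19.5%), against 20.0%. The share of mock bins was near the genome's, and that of LUZP1 bins rested on 11 bins. On the stricter measure, an interval wholly above 1, there were 4 such bins, 3 in Malat1 and 1 in Neat1, against 0.592% of tested bins in the genome. An interval wholly below 1 occurred in 1 of the 41 bins, in Neat1, against 4.06%. Of the bins with fewer than 5 reads, 2 between the genes had 0 LUZP1 and 4 mock reads and an interval of 0 to 0.983, the bin just upstream of the Malat1 start (5803001 to 5803500) and that from 5814501 to 5815000. The genome share of such bins was not counted, and with fewer than 5 reads only a mock excess could leave out 1.

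The 3 Malat1 bins adjoin each other (5800001 to 5801500). They held 12, 12 and 14 LUZP1 reads and 1, 1 and 2 mock reads, so that LUZP1 was the higher library in each. A read that overlaps 2 bins is counted in both, so adjoining bins are not independent. Together the 3 bins held 28 LUZP1 and 4 mock reads. Such a run of 3 or more adjoining bins, each with an interval above 1, occurred 3 times in the genome, at Malat1, on chromosome 4 (131390001 to 131391500) and on chromosome 17 (39981501 to 39986000). This count was made after the bins had been seen, and the Malat1 run was not found with bins moved by 250 bp, with bins of 250 bp, with reads extended to 100 bp or with pairs counted once. The genome then had 2, 4, 1 and 1 runs.

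No LUZP1 excess was found around the Malat1 start as a whole, on few reads. Within 500 bp of it (5802171 to 5803171) there were 6 LUZP1 and 5 mock reads. The ratio was 0.779 (0.198 to 3.23), or 0.685 (0.147 to 3.45) with pairs counted once. The bin from 5802001 to 5802500, most of which lies in this window, had 7 LUZP1 reads and 1 mock read. It was higher in LUZP1 by the 2-fold rule, with an interval of 0.584 to 205 that included 1. Among genes of 0.5 to 2 times the length of Malat1, 71.1% had a start ratio at least as high, with 1 added to both counts. Over all genes, 0.848% of starts had an interval above 1 and 1.61% one below, and neither Malat1 nor Neat1 was among them. The 300 bases of its promoter held 10 CpG dinucleotides at a GC content of 47.0%.

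The LUZP1 reads of Malat1 were concentrated between 1 and 3 kb after its start. In successive 1 kb pieces from the start, LUZP1 had 8, 18, 15, 2, 4, 6 and 7 reads, the last piece being 982 bp long. The mock had 4, 5, 2, 6, 6, 7 and 3. LUZP1 was thus highest from 1 to 3 kb and lowest in the fourth piece, while the mock was lowest in the third. The ratio was 2.34 (0.836 to 8.05) in the second piece, 4.87 (1.13 to 43.9) in the third and 0.216 (0.0213 to 1.21) in the fourth. The third piece was the only one of the 7 with an interval that left out 1, and with pairs counted once it was at 6.03 (0.876 to 260).

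**Figure D2:**
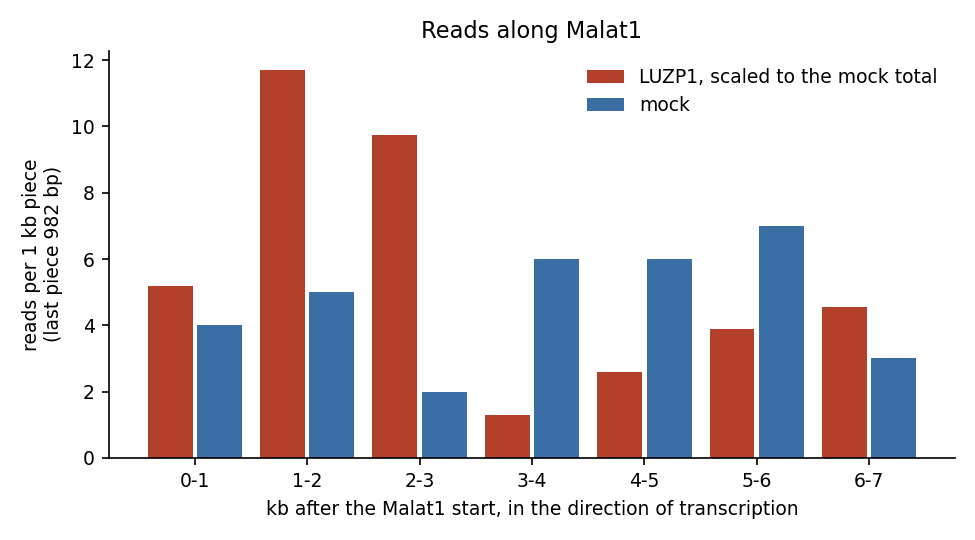
Reads that overlap successive 1 kb pieces of Malat1 from its start, in the direction of transcription, with LUZP1 scaled to the mock total. LUZP1 stands above the mock most clearly from 1 to 3 kb, at 11.7 and 9.73 scaled reads against 5 and 2.

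Both listed peaks of the locus lie in these 2 kb. The 5′ peak (5800961 to 5801470) lies 1201 to 1710 bp after the Malat1 start and the 3′ peak (5800079 to 5800896) 1775 to 2592 bp after it, with 64 bp between them. At 818 bp the 3′ peak was the longest of the 47 listed peaks, and the 5′ peak, at 510 bp, ranked 3 by length. Each held 14 LUZP1 and 2 mock reads, and each ranked 9 among the 47 by LUZP1 reads. Per kb of peak length the order differed: the 3′ peak had 17.1 LUZP1 reads, the lowest of all listed peaks. The 5′ peak had 27.5, rank 43. Extended reads that only reach over a peak's edge count in full, which raises the value per kb most in short peaks. The ranks per kb of these long peaks are therefore low in part by construction. Taking both peaks, 27 LUZP1 reads stood against 4 mock reads, and the ratio was 4.38 (1.53 to 17.2). Divided by the ratio of bins of the same GC, it was 3.78 (1.32 to 14.9). The list was called on these LUZP1 reads, so this ratio is a description of listed peaks.

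Most reads of the 5′ peak were paired. Its 14 LUZP1 reads were 7 on each strand and formed 6 pairs of 78 to 93 bp. The 3′ peak had 9 plus and 5 minus reads, with 4 pairs of 75 to 98 bp. Over both peaks 10 pairs took in 20 of 27 reads, whereas 35.5% of LUZP1 reads in the genome were joined. Reads were joined by strand and distance alone, so a higher share is joined where reads are denser. The span of the peaks had 18.0 LUZP1 5′ ends per kb, against 1.59 LUZP1 reads per kb of genome. These shares therefore cannot be compared directly. How many of the 10 pairs were joined through density alone was not tested, which also limits the count with pairs counted once. With pairs counted once, LUZP1 had 17 fragments and the mock 3, and the ratio was 3.11 (0.899 to 16.5), an interval that includes 1. The fragments were spread over the 1392 bp from the outer edge of the 5′ peak to that of the 3′ peak, with at most 4 over any base of the 3′ peak and at most 3 over any base of the 5′ peak.

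**Figure D3:**
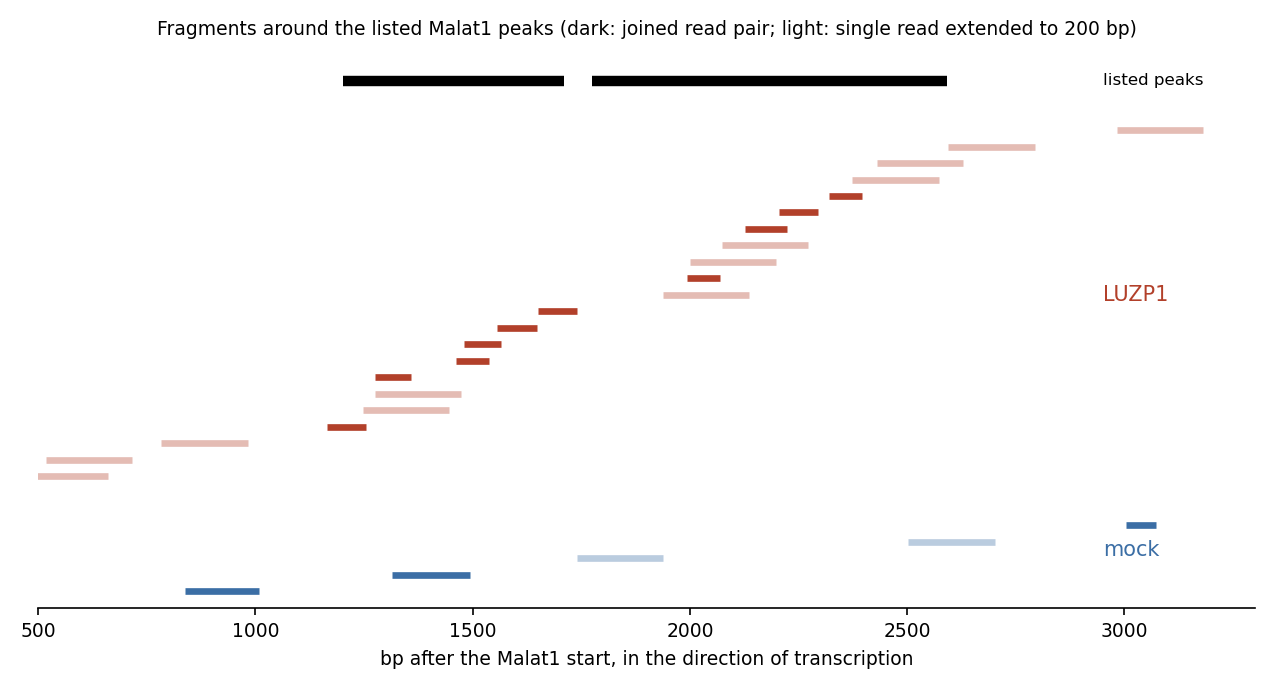
Fragments by bp after the Malat1 start, 1 line each, for LUZP1 (red) and the mock (blue), with the listed peaks as black bars. Dark lines are joined read pairs and light lines single reads extended to 200 bp. The 17 LUZP1 fragments that reach the peaks are spread over them, and 3 mock fragments reach them.

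The 2 sides of the peaks in Malat1 lay on opposite sides of balance, each with an interval that included 1. The body as a whole (5796191 to 5802170) had 45 LUZP1 and 21 mock reads, at a ratio of 1.39 (0.811 to 2.46), or 1.25 (0.650 to 2.54) with pairs counted once. The body reads outside the span of the peaks were 18 and 17, a ratio of 0.687 (0.334 to 1.42). On the 3′ side of the peaks (5796191 to 5800078) there were 14 and 16, a ratio of 0.568 (0.257 to 1.24). On the 5′ side (5801471 to 5802170) there were 8 and 2, a ratio of 2.60 (0.518 to 25.1). The bin from 5802001 to 5802500, with 7 and 1, was higher in LUZP1 by the 2-fold rule. Most of that bin lies within 500 bp of the start, outside the body. Extended reads that cross an edge of the peaks are counted both in the peaks and in a side. By 5′ ends alone the 3′ side had 14 and 16 and the 5′ side 4 and 2. With crossing reads left in both, the span of the peaks had 7.71 times the ratio of the 3′ side (1.92 to 36.6). With pairs counted once it had 5.19 times (1.02 to 33.9). This contrast sets a stretch chosen for its LUZP1 reads against the rest of the gene, so its size is a description. Gm20417, on the opposite strand within that 3′ side, had 5 and 3 reads, at 1.08 (0.210 to 6.96).

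At the Malat1 end and beyond it LUZP1 was the higher library, on few reads. Within 500 bp of the end (5795190 to 5796190) LUZP1 had 6 reads against 1 of the mock, which gave 3.89 (0.472 to 179), or 2.74 (0.307 to 130) with pairs counted once. Over the 100 bases with the A run and the tRNA-like sequence there were 2 and 0, with a lower interval bound of 0.122, so a difference could not be shown. In the next 5189 bp downstream, from 5795189 to the edge of the locus, the reads were 19 and 4, a ratio of 3.08 (1.02 to 12.5), or 2.19 (0.707 to 9.01) with pairs counted once. Of the 36-base sequences in that stretch, 75.9% occur once in the genome, against 97.8% over Malat1, and the part this plays in the ratio was not tested. The start had 0.200 times the ratio of the end, with an interval of 0.00363 to 2.89, so a difference between them could not be shown.

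Both libraries were denser on Malat1 than on most genes of its length. Its body had 7.53 LUZP1 reads per kb, and 12 of 7610 genes of 0.5 to 2 times its length, Malat1 included, had as many (0.158%). The median of these genes was 2.45. In the mock it had 3.51 reads per kb, reached by 96 of the 7610 genes (1.26%), with a median of 1.37. Only 6 of the genes, Malat1 included, reached its level in both libraries. The share was 0.237% for LUZP1 and 1.21% for the mock with pairs counted once. Of the genes of this length, 6.24% had a body ratio with an interval above 1 and 2.83% one below, and 32.3% had a body ratio at least as high as Malat1's. Malat1 therefore stood out by its reads in each library more than by the ratio between them.

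**Figure D4:**
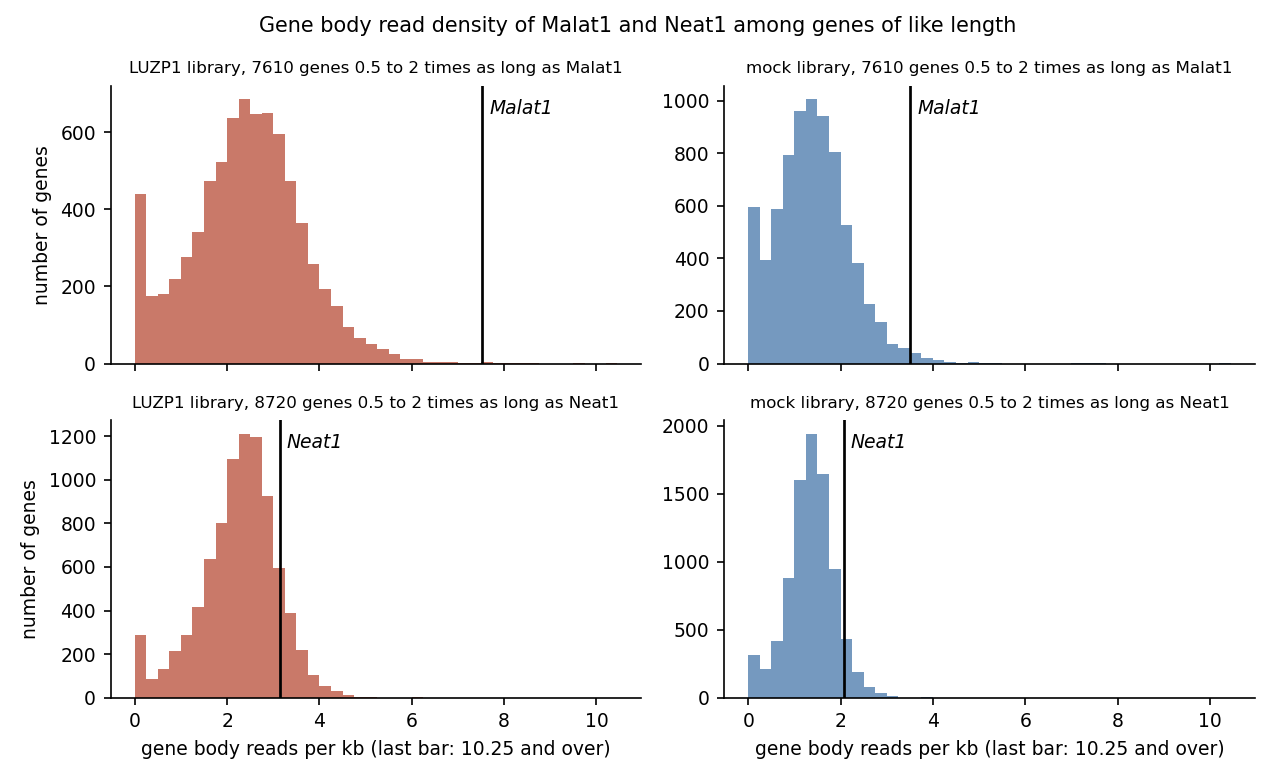
Number of genes by gene body reads per kb in LUZP1 (left) and the mock (right), for genes of 0.5 to 2 times the length of Malat1 (top) and Neat1 (bottom). Vertical lines mark Malat1, at 7.53 and 3.51 reads per kb, in the upper tail of both libraries, and Neat1, at 3.14 and 2.07, on the upper side of each distribution.

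Neat1 had no LUZP1 excess over its length. Its body (5825209 to 5844977) held 62 LUZP1 and 41 mock reads. The ratio was 0.981 (0.651 to 1.49), and 1.02 (0.631 to 1.67) with pairs counted once. The Neat1 body was denser than most genes of like length, less so than Malat1. It had 3.14 LUZP1 and 2.07 mock reads per kb, levels that 12.3% and 6.75% of 8720 genes reached, with medians of 2.34 and 1.37. Of these genes 8.61% had an interval above 1 and 3.57% one below. Malat1's body ratio was 1.42 times that of Neat1 (0.706 to 2.88), so a difference between the genes could not be shown.

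The Neat1 start and both of its ends held very few reads. Within 500 bp of the start (5844978 to 5845978) each library had 1 read, a ratio of 0.649 (0.00827 to 50.9), or 0.548 (0.00698 to 43.0) with pairs counted once. All 36-base sequences there occur once in the genome (100%). Its GC content of 57.0% was the highest of the starts and ends. The short form (5842307 to 5845476) had 7 and 8 reads, which gave 0.568 (0.175 to 1.79). The part made only as the long form (5824708 to 5842306) had 55 and 35, a ratio of 1.02 (0.656 to 1.61). The short form was at 0.557 times the long-only part (0.157 to 1.94). Around the end of the short form (5841807 to 5842807) and around that of the long form (5824208 to 5825208) there were 2 LUZP1 and 3 mock reads each, or a scaled 0.433 (0.0361 to 3.78), and 0.365 (0.0305 to 3.19) with pairs counted once.

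Within Neat1 the libraries differed at single places. In successive 5 kb pieces from the start LUZP1 had 18, 17, 16 and 11 reads and the mock 9, 13, 15 and 4, and the 4 intervals of these pieces included 1. The bins from 5840501 to 5841500 held 7 and 9 LUZP1 reads and 0 mock reads. This stretch lies 3978 to 4977 bp after the Neat1 start, and 807 to 1806 bp past the end of the short form. Together it had 11 LUZP1 reads, 7 plus and 4 minus, with a lower interval bound of 1.63. Counted with pairs once there were 9 LUZP1 fragments and 0 mock fragments, with a lower bound of 1.08. Set against 3 mock reads, the number that a count of 0 allows, the 11 reads came to 2.38-fold. The stretch is not in the authors' peak list and was singled out for its reads.

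A bin with mock reads only lay a few kb further into the long form. The bin from 5836001 to 5836500 had 6 mock reads and no LUZP1 read, with an upper interval bound of 0.551. It was the only 1 of the 41 tested bins of the locus with an interval below 1, against 4.06% in the genome. With pairs counted once, 0 of 21 tested bins of the locus were higher in the mock by the 2-fold rule. The bins from 5835501 and 5833001 had 2 and 1 LUZP1 reads against 5 mock reads each, with intervals that included 1. By the 2-fold rule Neat1 had 4 bins higher in LUZP1 and 5 higher in the mock among 15 with enough reads. Malat1 had 4 and 2 among 11.

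The stretch between the genes (5803172 to 5824207) was near balance, with 60 LUZP1 reads against 36 mock reads and a ratio of 1.08 (0.704 to 1.68), or 1.14 (0.706 to 1.87) with pairs counted once. Against it, the Malat1 body stood at 1.29 times (0.632 to 2.65) and the Neat1 body at 0.907 times (0.492 to 1.67). The libraries thus did not separate either gene as a whole from the sequence between them. Of its bins with enough reads, 2 of 9 were higher in LUZP1 and 1 in the mock. On the far side of the Neat1 start (from 5845979 over 9022 bp) the reads were 30 and 10, a ratio of 1.95 (0.926 to 4.46). Gm9783 had 12 and 5 there, a ratio of 1.56 (0.511 to 5.64).

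**Figure D5:**
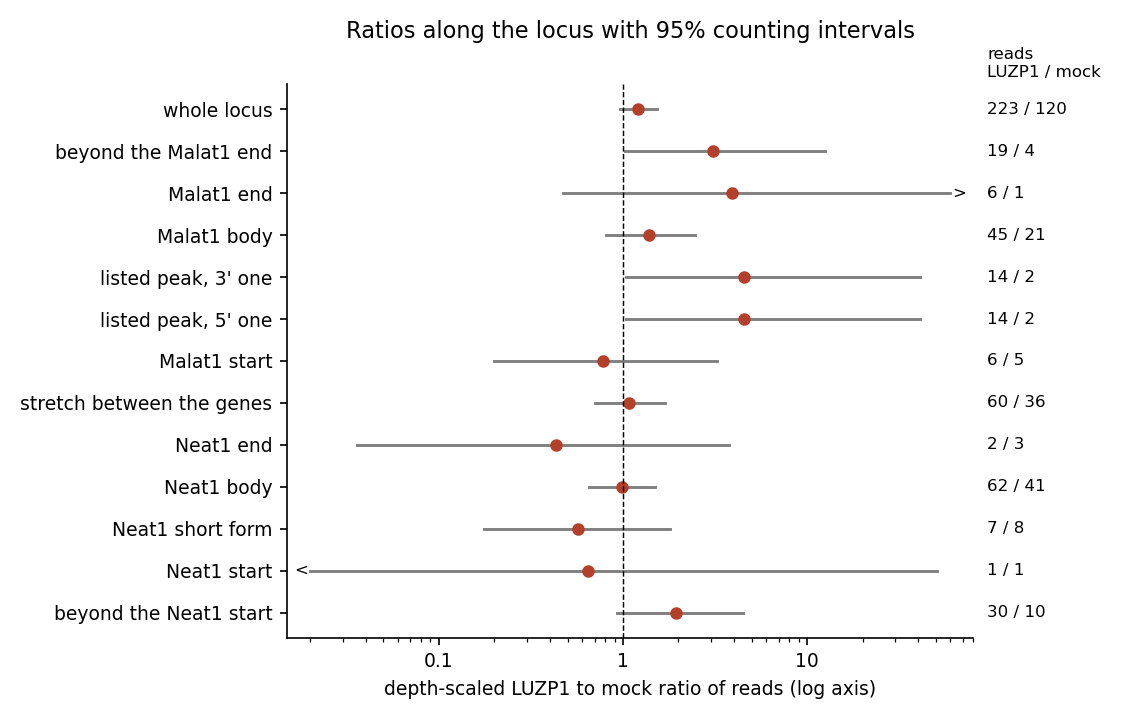
Depth-scaled LUZP1 to mock ratio of reads on a log axis for each stretch of the locus, with 95% counting intervals as lines, arrows where a line leaves the axis, and read numbers at the right. The listed peaks and the stretch beyond the Malat1 end have intervals that start just above 1 (1.04, 1.04 and 1.02), and the starts, bodies and ends of both genes have intervals that include it.

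The genes around the locus were compared by the same measures. Of 16 neighbours listed, 15 matched the annotation, and none of their 15 starts had an interval off 1. Of 13 bodies, 1 had an interval above 1, against 8.42% of all gene bodies, and none one below, against 4.70%. That gene was Frmd8, next to Neat1, with 71 LUZP1 reads against 24 mock reads, at 1.92 (1.19 to 3.19). Ltbp3 and Slc25a45 had body ratios of 1.09 and 0.751 with intervals that included 1. The densest neighbour body had 4.35 LUZP1 reads per kb (Rela) and the densest in the mock 3.46 (Kcnk7), so Malat1 exceeded all 13 in LUZP1 and in the mock.

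Of 28 long non-coding RNA genes listed, Malat1 and Neat1 included, 19 matched and 18 had a body of at least 1 kb, and none of these starts or bodies had an interval off 1. Over all genes the shares above and below 1 were 0.848% and 1.61% of starts and 8.42% and 4.70% of bodies, so that a count of 0 is near those shares. The bodies had a median of 2.47 LUZP1 and 1.28 mock reads per kb. Malat1 was the highest in LUZP1, at 7.53, and Xist, at 1.65 and 0.824, was below the median in both. Snhg3, which hosts a small nucleolar RNA, was close to Malat1 in LUZP1 at 7.49 and the highest in the mock at 5.14, with 35 and 24 reads and a ratio of 0.946 (0.547 to 1.66). Gas5, another such host, had 3.21 and 4.81. Snhg1, also a host, had 6.17 and 1.03, on 12 and 2 reads and a ratio of 3.89 (0.867 to 35.8). These 3 hosts were named after their values had been seen.

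Genes for the proteins of the bodies that Malat1 and Neat1 RNA belong to were counted in the same way. Of 24 paraspeckle protein genes, 1 start had an interval above 1, Hnrnpul1 with 8 LUZP1 and 0 mock reads and a lower bound of 1.11. Over all gene starts the share was 0.848%, with 1.61% below. The starts together had a ratio of 1.77 (1.15 to 2.79), those of the abundant transcripts 1.67 (1.09 to 2.62) and those of the neighbours 1.43 (0.914 to 2.28), and each of these intervals includes the 1.17 of all protein-coding starts. Of the 24 bodies, 3 had an interval above 1 and 3 one below, against 8.42% and 4.70% of all gene bodies. Above were Hnrnpa1 (11 and 0 reads, lower bound 1.63), Tardbp (ratio 1.74, 1.01 to 3.12) and Dazap1 (1.53, 1.03 to 2.31), which encode RNA-binding proteins. Below were Taf15 (0.545, 0.362 to 0.817), Hnrnph3 (0.441, 0.224 to 0.850) and Zc3h6 (0.695, 0.511 to 0.947). Sfpq, Nono and Pspc1, the core paraspeckle proteins, had intervals that included 1. Of 19 nuclear speckle protein genes, none had a start or body interval off 1, against the shares of all genes just given. Of 18 genes of abundant transcripts, 1 start had one above 1, Hsp90ab1, a chaperone gene, with 10 and 0 reads and a lower bound of 1.45, against 0.848% of all starts, and no body did, against 8.42% of all bodies. Chosen as the densest body of that list, Eef2, which encodes a translation factor, had 5.33 LUZP1 reads per kb, and the densest in the mock, Actb, had 3.03, both below Malat1.

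The genes most like Malat1 were sought among the 11 of like length with at least its LUZP1 reads per kb, by the smallest difference in the log2 body ratio over the 2 libraries. They were BC018473 (90 and 46 reads, ratio 1.27), Pisd-ps2 (57 and 32, ratio 1.16) and Pisd-ps1 (81 and 29, ratio 1.81). Pisd-ps1 and Pisd-ps2 are named as pseudogenes, whose reads may be shared with near-identical copies, so their values are uncertain. For Neat1, of 1071 such genes, Irf5, Necab3 and Tenc1 were nearest, with ratios of 0.982, 0.983 and 0.984. With 2 libraries this likeness is a description and rests on a single ratio.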

How the data were processed

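The authors deposited mapped reads as a count of 1 per line and position, and a LUZP1 peak list of positions without scores. Chromatin (300 µg) was, per the labels' design text, precipitated, then sequenced on an Illumina Genome Analyzer II and aligned to mm9 with Eland, allowing 1 mismatch. Per the same text, peaks were called with MACS, kept at 100 to 1000 bp, repeat masked and annotated with Ensembl 57. Not given in the sources used here were versions, removal of repeated reads and whether MACS used the mock. A GCN5 precipitation named there was not analysed here.

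Each read was lengthened to 200 bp, those overlapping a region were counted, and LUZP1 counts were multiplied by 0.649, the mock total over the LUZP1 total. With pairs counted once the factor was 0.548, the mock fragment total over that of LUZP1. Depth was 4214959 and 2734938 reads. A body was the gene beyond 500 bp from its start and end. Genes came from GENCODE for NCBIM37, the assembly called mm9, and 36-base sequences were matched to it on both strands. Pairs joined lay 63 to 107 bp (LUZP1) or 37 to 187 bp (mock) apart, where pairs were at least 2 times as frequent as at 301 to 600 bp. Intervals were computed with SciPy 1.17.1 and tested on simulated counts. These were drawn independently for each bin, without read pairs, so the test does not cover paired reads. Alternatives were extension, read position, pairs, scaling, GC content, local background, unique sequence, window and bin size, minimum, fold and added count. Genes named are the 2 members, genes in the locus, listed neighbours, genes of the other lists whose interval left out 1 with up to 3 others a list, and the 3 most like each member. Eef2, Snhg1, Snhg3 and Gas5 fall outside this rule and were named for their values. Members, lists and rules were chosen with earlier results of these data known.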

Additional observations from a re-analysis of the deposited data

How the results depend on the processing

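The ratio of the listed peaks ranged from 3.11 to 7.79 over 8 alternatives, with an interval above 1 in 7 of them. The exception was counting pairs once (3.11, 0.899 to 16.5). No listed peak of the locus held 15 LUZP1 reads, so that stricter threshold gave no value. The Malat1 body ranged from 1.19 to 1.39, its start from 0.519 to 0.780, its end from 2.08 to 3.90, the stretch between the genes from 0.859 to 1.14 and the whole locus from 1.06 to 1.21, and none of these had an interval off 1 in any alternative. The Neat1 body fell to 0 on the shortest annotated transcript (0 and 2 reads). The Neat1 end fell to 0 with 5′ ends counted (0 and 3 reads) and with 250 bp on each side (0 and 2 reads). The Neat1 start gave no ratio with reads not extended, with 5′ ends or with 250 bp on each side, where the mock had 0 reads.

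Counts of bins moved with the rule. The 11 bins higher in LUZP1 became 4 with bins moved by 250 bp, 7 without extension, 36 with no minimum, 5 with at least 8 reads, 6 at 3-fold, 7 with 2 added and 6 with pairs counted once. The 8 bins higher in the mock became 3 with bins of 250 bp, 3 with bins moved by 250 bp, 5 with extension to 100 bp, 2 without extension, 17 with no minimum, 0 with at least 8 reads, 14 at 1.5-fold, 4 at 3-fold, 5 with 2 added and 0 with pairs counted once. A minimum on fewer reads or fragments tests fewer bins: 7 bins held 8 reads, and 21 held 5 fragments. No paired analysis was possible because each group has 1 library.

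Against 0 reads of the other library, an interval left out 1 from 8 LUZP1 reads or from 4 mock reads. At the starts and ends, with 1 to 6 LUZP1 reads, a LUZP1 excess was not detectable at this depth.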
